A study of Mus musculus with 6 samples.

Results

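The 28 genes described here make cholesterol, control how much of it is made, take it up and hand it on inside the cell, or export it. They were taken as a named list, by gene symbol, from 35905 genes with a transcript in the deposited tables. All 28 were found, each under 1 gene identifier, on 16 chromosomes, and 27 had enough reads to be tested among 13247 genes. Mylip alone was below the low-count filter. The list covers most but not every step of the pathway.

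The RNA came from EO771-tdT-LM2 and EO771-tdT-Parental cells, related lines of the mouse mammary tumour EO771, called LM2 and Parental here. Each line had 3 libraries of 33922699 to 45849019 estimated counts, and both carry the genotype label WT. The titles of the Parental samples add Ac6 to the name of the line, and the labels leave Ac6, tdT and the way LM2 was made unexplained. Cells of both lines were taken at about 75% confluence after 48 h in RPMI 1640 supplemented by 10% fetal bovine serum. Each group is a single cell line, and nothing says that its libraries were grown separately, so a p-value here reflects variation among these 6 libraries, which may be technical. Of 6 mammary epithelial markers 3 were tested, and all 3 were higher in LM2. Among these, Epcam passed the low-count filter only through its LM2 libraries. Krt8 was abundant, at 568 ± 10.4 CPM in LM2 and 420 ± 6.62 CPM in Parental cells (SD, n = 3 each; CPM are counts scaled to library size by TMM). Epcam averaged 14.97 CPM in LM2 and 0.154 CPM in Parental cells. Krt14 averaged 8.47 CPM in LM2 and 1.11 CPM in Parental cells. The untested Krt18, Krt5 and Cdh1 averaged below 0.2 CPM in both lines. Of these Krt18 and Krt5 had the higher mean in LM2, while Cdh1 averaged 0.0938 CPM in LM2 and 0.187 CPM in Parental cells. Endothelial markers summed to 4.12 to 4.54 CPM in LM2 and 3.37 to 4.19 CPM in Parental libraries, and adipocyte markers to 0.174 to 0.237 CPM in LM2 and 0.248 to 0.496 CPM in Parental libraries. Most of the endothelial sum was Pecam1, at 3.59 CPM in LM2 and 3.49 CPM in Parental cells (edgeR adjusted p = 0.816). Cdh5 was low but higher in LM2, at 0.668 CPM against 0.180 CPM in Parental cells (edgeR adjusted p = 0.000529). As with Epcam, the entry of Cdh5 into the test depended on its higher LM2 libraries. Kdr averaged below 0.2 CPM in both lines.

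Cells build cholesterol from acetyl-CoA through mevalonate, isoprenoid units, squalene and lanosterol. The transcription factor SREBP2 switches on the genes of this route when membranes of the endoplasmic reticulum run low in sterol: SCAP then carries it to the Golgi for cleavage, and when sterol is plentiful INSIG proteins hold SCAP back. Oxysterols act in the opposite sense through LXR receptors, which raise the exporters ABCA1 and ABCG1 and the ligase MYLIP.

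In LM2 10 of the 18 enzyme genes were a little lower, 3 were higher, and both export genes were higher. Of 27 tested members 13 were lower and 6 higher in LM2 at an adjusted p below 0.05 (edgeR quasi-likelihood test, Benjamini-Hochberg over all tested genes), and 8 did not pass. Thus 48.1% of the tested members were lower, 22.2% higher and 70.4% either, against 31.1% lower, 31.4% higher and 62.4% either among all tested genes. Sizes were small. In that fit 3 members differed by more than 1.5-fold as well, the exporters Abca1 and Abcg1 above and the lanosterol synthase gene Lss below. That was 7.41% and 3.70% of the tested members, against 10.8% of all tested genes above and 5.91% below. In 21 of 27 members (77.8%) the CPM ranges of LM2 and Parental cells were apart, against 67.0% of all tested genes. The median log2 fold change of the members was -0.09, and 0.00 over all tested genes, whose interquartile range ran from -0.22 to 0.27. These counts describe the list and are not a test of it. Abca1 entered them only through its LM2 libraries, where it passed the low-count filter.

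One library stood apart within its line in these genes. LM2 replicate 3 was the highest of the 3 LM2 libraries in 21 of 27 members and in 14 of 18 enzyme genes, against 33.2% of all tested genes. The TPM, a level corrected for transcript length, of the 18 enzyme genes summed to 442.5, 450.2 and 491.1 in LM2 replicates 1 to 3, and to 498.4, 499.7 and 489.7 in Parental replicates 1 to 3. The third LM2 library therefore reached the Parental range in this sum and the other 2 did not. Without it, 15 members were called lower and 6 higher, and the median of the members was -0.15. Over all genes it was LM2 replicate 1 that differed most from its line. Chi-square per degree of freedom was 6.98 and 6.52 for its pairs, against 4.61 for LM2 replicates 2 and 3. What set replicate 3 apart in the members was not tested.

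**Figure D1:**
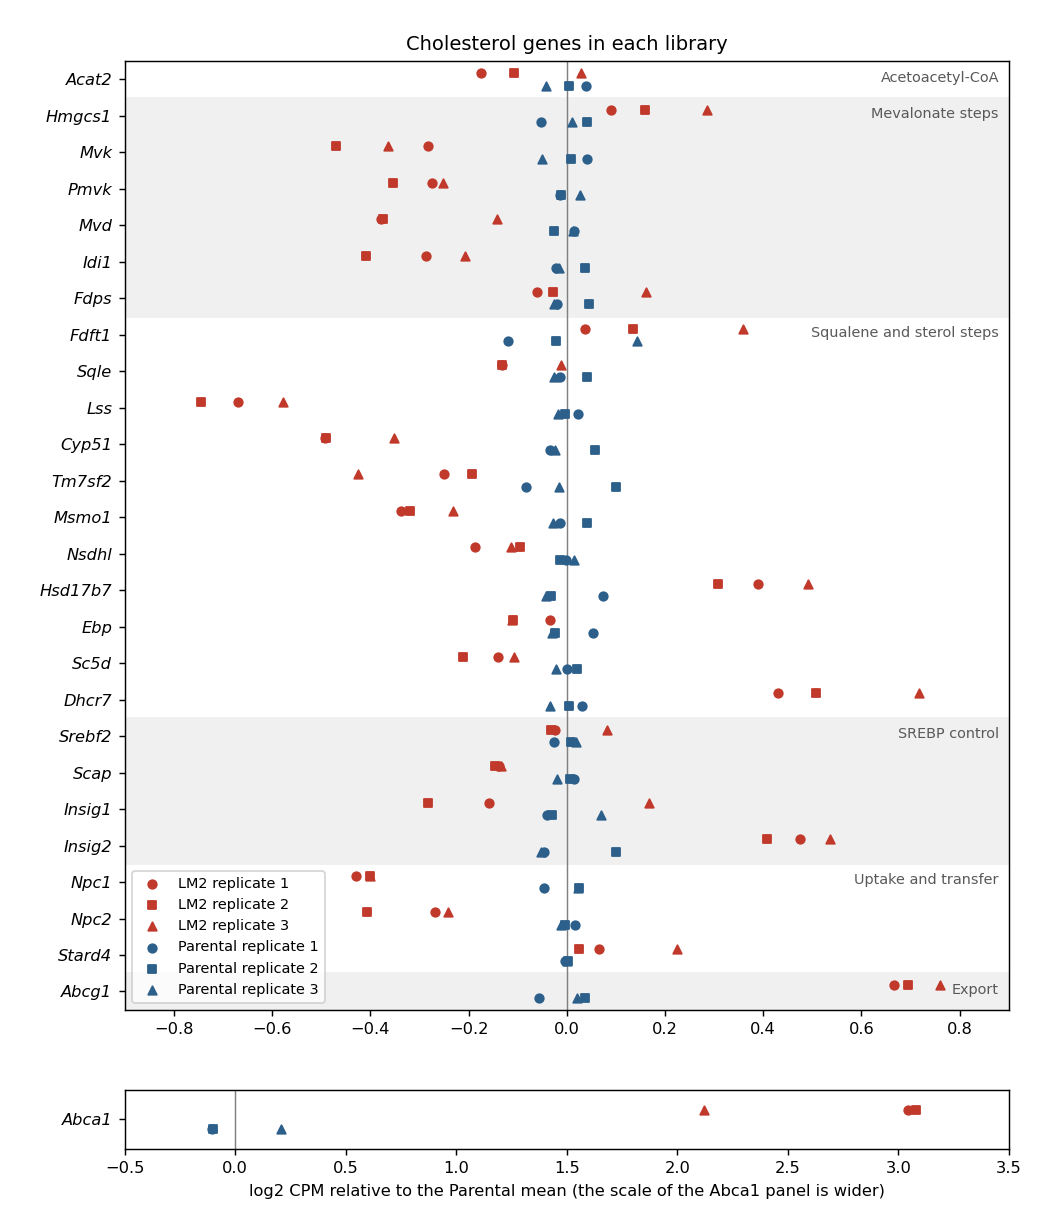
Each point is 1 library, placed by its log2 CPM relative to the Parental mean of that gene (x axis), with LM2 in red above Parental in blue and one marker shape per replicate number; Abca1 has its own wider axis and Mylip is not drawn. Red points lie left of blue for most enzyme genes and right of blue for Hmgcs1, Hsd17b7, Dhcr7, Insig2, Stard4, Abcg1 and Abca1, and the red triangle, LM2 replicate 3, is the rightmost red point in 21 of 27 genes.

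The promoters of these genes are shown for 4 members whose results the text turns on: Hmgcs1 and Insig1, whose windows hold a short match to the sterol element, Lss, the enzyme gene with the largest fall, and Abca1, the exporter with the largest rise. Each is the RefSeq window from 250 bases before to 50 after the annotated start on GRCm38.p6, read in the direction of the gene, with matches to CACNCCAC and CCAAT on either strand in capitals. CACNCCAC is a short form of the sterol regulatory element and CCAAT the box bound by the factor NF-Y. The windows are Hmgcs1 at chr13:119690101-119690400 on the plus strand, Insig1 at chr5:28071162-28071461 on the plus strand, Lss at chr10:76531355-76531654 on the plus strand and Abca1 at chr4:53159846-53160145 on the minus strand.
Hmgcs1: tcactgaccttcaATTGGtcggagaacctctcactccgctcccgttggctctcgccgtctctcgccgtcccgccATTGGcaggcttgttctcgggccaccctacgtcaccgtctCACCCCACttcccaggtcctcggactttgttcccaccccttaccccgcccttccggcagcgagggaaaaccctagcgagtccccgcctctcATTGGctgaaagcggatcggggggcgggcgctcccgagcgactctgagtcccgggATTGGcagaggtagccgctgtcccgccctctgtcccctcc
Insig1: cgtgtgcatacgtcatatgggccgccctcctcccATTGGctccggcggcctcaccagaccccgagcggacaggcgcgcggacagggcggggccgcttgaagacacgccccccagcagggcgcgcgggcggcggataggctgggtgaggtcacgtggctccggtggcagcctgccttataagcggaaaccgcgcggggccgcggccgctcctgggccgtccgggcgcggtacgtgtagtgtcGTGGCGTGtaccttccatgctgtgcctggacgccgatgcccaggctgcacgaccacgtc
Lss: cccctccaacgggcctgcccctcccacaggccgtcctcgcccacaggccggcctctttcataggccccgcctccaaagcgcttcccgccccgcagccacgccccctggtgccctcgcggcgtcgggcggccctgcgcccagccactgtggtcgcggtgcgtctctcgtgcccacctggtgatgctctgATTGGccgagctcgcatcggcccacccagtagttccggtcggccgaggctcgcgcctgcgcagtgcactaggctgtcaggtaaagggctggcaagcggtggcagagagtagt
Abca1: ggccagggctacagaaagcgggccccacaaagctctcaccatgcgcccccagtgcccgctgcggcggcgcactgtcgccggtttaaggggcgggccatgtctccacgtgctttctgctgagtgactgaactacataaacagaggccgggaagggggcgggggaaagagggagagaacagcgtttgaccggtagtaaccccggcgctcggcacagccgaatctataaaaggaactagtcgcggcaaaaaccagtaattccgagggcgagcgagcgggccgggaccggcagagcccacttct

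The Hmgcs1 window holds 1 CACNCCAC match and 4 CCAAT boxes, Insig1 holds 1 of each, Lss 1 CCAAT box and Abca1 neither. The table gave 28 windows for 22 of the members, and Fdps, Fdft1, Sqle, Npc1, Stard4 and Abcg1 had none. CACNCCAC was found in 3 of the 28 windows (10.7%), in Acat2, Hmgcs1 and Insig1, against 6.24% of all 32851 windows. CCAAT was found in 19 of 28 (67.9%), against 37.4% of all windows. The GC box GGGCGG was found in 24 of 28 (85.7%), against 35.7% of all windows and 61.0% of the 12504 windows of tested genes. Matches of different motifs can share letters, a match is not a bound site, and the lack of one says only that these letters are absent from the window.

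The first steps lead from acetyl-CoA to farnesyl diphosphate, and most of their genes fell slightly in LM2. Of the 7 members here 4 were lower, 1 was higher and 2 did not pass. Acat2, the cytosolic thiolase that joins acetyl-CoA units, had 20.9, 21.9 and 24.1 CPM in LM2 and 24.3, 23.7 and 23.0 CPM in Parental libraries, a log2 fold change of -0.08 ± 0.06 (SE) that did not pass (adjusted p = 0.225). LM2 replicate 3 lay inside the Parental range and the other 2 LM2 libraries below it. Without that library the value was -0.15 with edgeR adjusted p = 0.0347, in a range of 0.0347 to 0.678 over 14 alternatives. In Acat2 43.8% of the 31-base words recur in transcripts of other genes, so its counts are uncertain.

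Hmgcs1, the synthase that makes HMG-CoA, was the one gene of these steps to rise. It had 69.7, 73.2 and 79.9 CPM in LM2 and 63.2, 67.4 and 66.1 CPM in Parental libraries, 1.13-fold higher in LM2 (log2 fold change 0.18 ± 0.04, edgeR adjusted p = 0.00223). All LM2 libraries lay above all Parental libraries, with the smallest LM2 value close to the largest Parental value. Of the 31-base words of Hmgcs1 13.1% recur in transcripts of other genes.

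The kinases and the decarboxylase that follow were lower. Mvk, mevalonate kinase, had 27.6, 24.3 and 26.2 CPM in LM2 and 34.6, 33.9 and 32.5 CPM in Parental libraries, 1.29-fold lower in LM2 (log2 fold change -0.37 ± 0.05, edgeR adjusted p = 2.485e-06). Pmvk, phosphomevalonate kinase, averaged 15.9 CPM in LM2 and 19.5 CPM in Parental cells (-0.29 ± 0.06, edgeR adjusted p = 8.178e-05). Neither gene overlapped between the lines. Mvd, the decarboxylase that forms the isoprene unit, had 12.8, 12.9 and 15.1 CPM in LM2 and 16.9, 16.4 and 16.8 CPM in Parental libraries, a log2 fold change of -0.29 ± 0.07 (edgeR adjusted p = 0.000485). LM2 replicate 3 was nearest to the Parental values.

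Idi1, the isomerase that balances the isoprene units, averaged 36.3 CPM in LM2 and 44.6 CPM in Parental cells (log2 fold change -0.30 ± 0.05, edgeR adjusted p = 1.269e-05). With an offset for effective transcript length the value was -0.47, and it was -0.46 in the authors' deposited table. Of the 31-base words of Idi1 27.1% recur in other genes. Fdps, which makes farnesyl diphosphate and has 27.9% of such words, had 47.5, 48.6 and 55.4 CPM in LM2 and 48.9, 51.2 and 48.7 CPM in Parental libraries. Its log2 fold change was 0.03 ± 0.05 and did not pass (adjusted p = 0.64), and the LM2 values lay on both sides of the Parental ones.

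The next steps run from squalene to cholesterol. Of 11 members 6 were lower, 2 were higher and 3 did not pass. Fdft1, squalene synthase, commits carbon to sterols. It had 11.1, 11.8 and 13.8 CPM in LM2 and 9.91, 10.6 and 11.9 CPM in Parental libraries, a log2 fold change of 0.18 ± 0.09 that did not pass (adjusted p = 0.077). Adjusted p was below 0.05 without LM2 replicate 1 (log2 fold change 0.25, edgeR adjusted p = 0.0232), without Parental replicate 3 (0.26, edgeR adjusted p = 0.0245) and with a replicate block (0.18, edgeR adjusted p = 0.0367), and it reached 0.507 at the highest over 14 alternatives. Without LM2 replicate 3 the value was 0.08. Fdft1 shares 31.9% of its words and overlaps exons of the abundant Ctsb on the other strand, and the treatment of strand is not given in the sources used here.

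Sqle, squalene epoxidase, had the highest TPM of these 11 enzyme genes. It had 99.7, 99.8 and 108.4 CPM in LM2 and 108.3, 112.5 and 107.4 CPM in Parental libraries. The fall was 1.07-fold (log2 fold change -0.09 ± 0.03, edgeR adjusted p = 0.0243), with LM2 replicate 3 inside the Parental range and the other 2 below it. The call was lost without LM2 replicate 1 (edgeR adjusted p = 0.0634), LM2 replicate 2 (0.093) or Parental replicate 2 (0.115), with DESeq2 and in both settings that use transcript lengths, in a range of 0.000662 to 0.239 over 14 alternatives. Without LM2 replicate 3 the log2 fold change was -0.14.

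Lss, lanosterol synthase, folds squalene epoxide into the first sterol and had the largest fall of the 27 tested members. It had 30.0, 28.5 and 32.0 CPM in LM2 and 48.5, 47.6 and 47.2 CPM in Parental libraries, 1.58-fold lower in LM2 (log2 fold change -0.66 ± 0.05, edgeR adjusted p = 3.348e-11). In CPM the LM2 libraries were all far below the Parental ones. In TPM the libraries of each line were more spread, at 9.80, 13.3 and 16.3 in LM2 and 22.5, 17.4 and 25.7 in Parental libraries. The nearest libraries of the lines were therefore closer, but the fall was not smaller. Its log2 fold change was -0.78 with an effective length offset and -0.7 on log2(TPM + 1). The call on Lss held in all 14 alternatives. Its adjusted p was 0.0151 with an effective length offset in edgeR and at most 0.0200, with limma on log2(TPM + 1). Cyp51, the lanosterol demethylase, had 33.1, 33.2 and 36.5 CPM in LM2 and 45.6, 48.5 and 45.9 CPM in Parental libraries, 1.36-fold lower in LM2 (log2 fold change -0.44 ± 0.05, edgeR adjusted p = 2.953e-08). Its exons overlap those of Akap9 on the other strand.

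The enzymes that trim the methyl groups of lanosterol moved in both directions. Msmo1, the methylsterol oxidase, had 35.8, 36.3 and 38.5 CPM in LM2 and 44.8, 46.6 and 44.4 CPM in Parental libraries, a log2 fold change of -0.30 ± 0.04 (edgeR adjusted p = 3.519e-06). Nsdhl, the dehydrogenase that works after it, averaged 22.5 CPM in LM2 and 24.7 CPM in Parental cells (-0.13 ± 0.05, edgeR adjusted p = 0.0286). That call was lost without LM2 replicate 1 (0.0854), Parental replicate 1 (0.0557) or Parental replicate 3 (0.0641), with DESeq2 (0.0951) and in both settings that use transcript lengths, in a range of 0.0184 to 0.148 over 14 alternatives. Hsd17b7, the keto-reductase that completes each round, had 10.0, 9.49 and 10.8 CPM in LM2 and 8.07, 7.49 and 7.43 CPM in Parental libraries, 1.32-fold higher in LM2 (log2 fold change 0.40 ± 0.08, edgeR adjusted p = 0.000233). All LM2 libraries lay above all Parental libraries. With an effective length offset adjusted p was 0.0732 and with limma on log2(TPM + 1) it was 0.08, in a range of 7.121e-05 to 0.08 over 14 alternatives.

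Tm7sf2, a sterol reductase of the same stretch, was low, at 3.62, 3.77 and 3.20 CPM in LM2 and 4.07, 4.63 and 4.26 CPM in Parental libraries. Its log2 fold change of -0.29 ± 0.13 did not pass (adjusted p = 0.057), although the lines did not overlap. With an effective length offset the value was -0.58 (edgeR adjusted p = 0.00453), with limma on log2(TPM + 1) it was -0.43 (adjusted p = 0.00305), and without LM2 replicate 2 it was -0.35 (edgeR adjusted p = 0.0484), in a range of 0.00305 to 0.174 over 14 alternatives. In Tm7sf2 13.3% of words are shared, and it overlaps exons of Vps51 on the same strand.

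The last reactions shift and reduce the double bonds of the ring. Ebp, the sterol isomerase, averaged 13.9 CPM in LM2 and 14.8 CPM in Parental cells and did not pass (log2 fold change -0.09 ± 0.06, adjusted p = 0.216). Sc5d, a desaturase, averaged 68.3 CPM in LM2 and 75.9 CPM in Parental cells, 1.11-fold lower in LM2 (-0.15 ± 0.03, edgeR adjusted p = 0.000459). Dhcr7, the reductase that yields cholesterol, rose. It had 33.7, 35.6 and 41.1 CPM in LM2 and 25.6, 25.1 and 24.4 CPM in Parental libraries, 1.47-fold higher in LM2 (log2 fold change 0.56 ± 0.06, edgeR adjusted p = 6.478e-07). Every LM2 library was well above every Parental library, and the third was the highest.

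The genes that sense sterol and switch the pathway differed little, with 1 exception. Srebf2, which encodes SREBP2, had 298, 296 and 321 CPM in LM2 and 297, 305 and 307 CPM in Parental libraries (log2 fold change 0.01 ± 0.03, adjusted p = 0.783). Those values overlapped. Scap averaged 107 CPM in LM2 and 117.5 CPM in Parental cells, 1.10-fold lower in LM2 (-0.14 ± 0.03, edgeR adjusted p = 0.000118). The call on Scap was lost with an effective length offset (0.0532) and with limma on log2(TPM + 1) (0.193), in a range of 3.16e-07 to 0.193 over 14 alternatives, and 11.3% of its words recur in 1 other gene.

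The paralogous anchors Insig1 and Insig2 did not show the same values. Insig1, itself a target of SREBP2, had 19.7, 18.1 and 24.7 CPM in LM2 and 21.4, 21.6 and 23.1 CPM in Parental libraries (log2 fold change -0.08 ± 0.11, adjusted p = 0.597). Its LM2 libraries lay on both sides of the Parental ones, 2 below and the third above. Without LM2 replicate 3 the log2 fold change was -0.22 with edgeR adjusted p = 0.00466, and over 14 alternatives adjusted p ranged up to 0.919. Insig2 had 26.6, 25.4 and 27.8 CPM in LM2 and 18.5, 20.5 and 18.5 CPM in Parental libraries, 1.39-fold higher in LM2 (log2 fold change 0.48 ± 0.06, edgeR adjusted p = 1.874e-07). The lines did not overlap. The difference between the paralogs was not tested.

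Cholesterol taken up in lipoproteins leaves the lysosome through NPC2 and NPC1, and both genes fell in LM2. Npc1, the membrane protein, had 29.2, 29.8 and 29.8 CPM in LM2 and 38.1, 40.1 and 40.0 CPM in Parental libraries, 1.33-fold lower in LM2 (log2 fold change -0.41 ± 0.04, edgeR adjusted p = 4.804e-08). Npc2, the soluble carrier, had 174, 158 and 177 CPM in LM2 and 212, 209 and 208 CPM in Parental libraries, 1.23-fold lower in LM2 (-0.30 ± 0.04, edgeR adjusted p = 2.827e-06). In both genes all LM2 libraries lay below all Parental libraries, and in Npc1 the 3 LM2 libraries were nearly equal. Exons of Npc1 overlap those of Rmc1 on the other strand.

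Stard4, a soluble protein that moves sterol between membranes, had 31.6, 30.7 and 35.3 CPM in LM2 and 30.1, 30.3 and 30.2 CPM in Parental libraries, without overlap. Its log2 fold change was 0.11 ± 0.05 and did not pass (adjusted p = 0.078). Without LM2 replicate 2 it was 0.14 (edgeR adjusted p = 0.0275) and without LM2 replicate 3 it was 0.04, with adjusted p between 0.0275 and 0.54 over 14 alternatives. Mylip, the ligase that marks lipoprotein receptors for degradation, was close to undetected, with estimated counts of 2.01, 1.45 and 2.35 in LM2 libraries and 0, 1 and 0 in Parental libraries, and no fold is given.

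Both exporters rose. Abcg1, which passes sterol to lipoprotein particles, was abundant, with 137, 139.5 and 146 CPM in LM2 and 82.9, 88.4 and 87.4 CPM in Parental libraries. It was 1.63-fold higher in LM2 (log2 fold change 0.71 ± 0.03, edgeR adjusted p = 2.708e-14), and the lowest LM2 library was far above the highest Parental one. Abca1, which loads sterol onto apolipoproteins, was low in both lines, with 48, 48 and 27 counts in LM2 libraries and 5, 4 and 6 in Parental libraries. That was 1.39, 1.42 and 0.707 CPM in LM2 and 0.110, 0.110 and 0.149 CPM in Parental libraries, 9.29-fold higher in LM2 (log2 fold change 3.21 ± 0.41, edgeR adjusted p = 5.419e-07). Abca1 passed the low-count filter only through its LM2 libraries, so its entry into the test already depended on the higher LM2 values. The lines did not overlap, and LM2 replicate 3 was the lowest of its line here. On log2(TPM + 1), which damps low genes, the difference was 0.35 with limma adjusted p = 0.0755, in a range of 1.28e-12 to 0.0755 over 13 alternatives. Macrophages also express both exporters, and 5 leukocyte markers summed to 2.63 to 3.14 CPM in LM2 and 1.78 to 2.23 CPM in Parental libraries. Of these Adgre1 was at 0 in both lines, Ptprc, Csf1r and Cd3e averaged below 0.2 CPM, and Cd68 averaged 2.68 CPM in LM2 and 1.75 CPM in Parental cells (log2 fold change 0.62, edgeR adjusted p = 0.00539). The part of such cells in the values of the exporters was not tested.

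Levels can be compared between genes in TPM, which accounts for transcript length. Srebf2 was the highest, at 113 ± 4.57 TPM in LM2 and 113 ± 1.68 TPM in Parental cells (SD, n = 3 each). Npc2 followed with 87.7 ± 5.86 TPM in LM2 and 106 ± 1.22 TPM in Parental cells, then Fdps, at 73.2 and 70.5 TPM, and Abcg1, at 76.9 ± 7.95 TPM in LM2 and 48.4 ± 0.757 TPM in Parental cells. Abcg1 and Fdps did not differ beyond their spread in LM2. In Parental cells the mean of Abcg1 lay below those of Fdps, Sqle, Scap and Sc5d. Among the enzymes Sqle averaged 59.2 TPM in LM2 and 62.0 TPM in Parental cells, and the lowest were Hsd17b7, at 3.83 TPM in LM2 and 2.96 TPM in Parental cells, and Tm7sf2, at 3.30 TPM in LM2 and 4.80 TPM in Parental cells. Abca1 had 0.204, 0.639 and 0.105 TPM in LM2 and 0.0160, 0.0160 and 0.0216 TPM in Parental libraries. In LM2 replicate 2, the highest, a processed transcript held 11.8% of the Abca1 counts, against 0% in each of the other libraries.

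**Figure D2:**
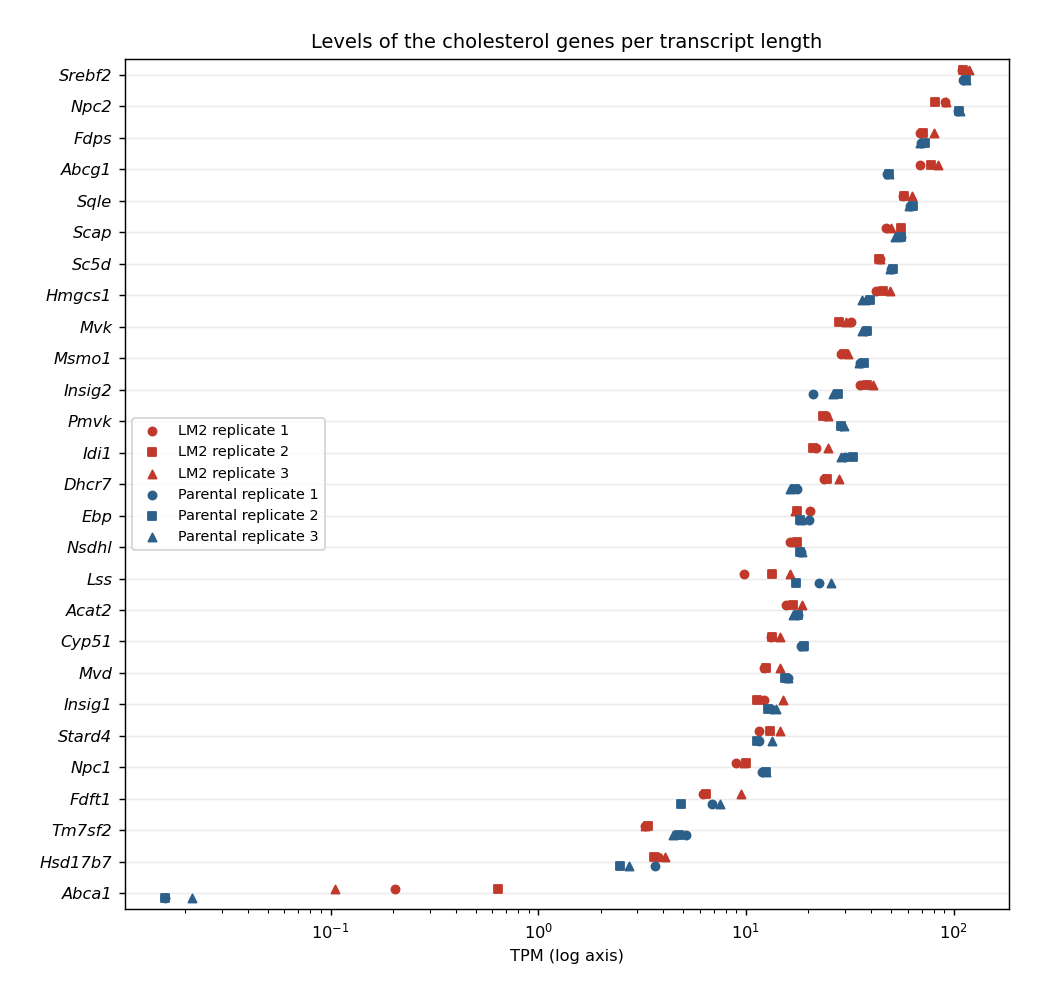
TPM of each gene in each library on a log axis, LM2 in red above Parental in blue, one marker shape per replicate number, with genes ordered by their mean over both lines and Mylip not drawn. Most genes lie between about 3 and 113 TPM with the lines close together, Abcg1 is higher in LM2, and Abca1 lies far below the rest.

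Several chromosomes were shifted as a whole between the lines, and 4 members lie on chromosomes 4, 8 and 10, which had the largest shifts among the 16 that carry members. The median log2 fold change of the other tested genes was -0.31 on chromosome 8, which carries Mvd and Msmo1, -0.33 on chromosome 10, which carries Lss, and 0.39 on chromosome 4, which carries Abca1. Mvd and Msmo1 sat at the middle of their chromosome, each 0.02 above its median, so that 51.8% of the other chromosome 8 genes had a lower value than Mvd and 51.5% a lower value than Msmo1. They were the only 2 of 19 called members whose sign changed once the chromosome's median was subtracted. Lss was 0.33 below the median of chromosome 10, and Abca1 was 2.83 above that of chromosome 4. Npc2 lies on chromosome 12, with a median of -0.18, and the 20 tested genes nearest to Npc2 had a median of -0.31, against -0.30 for Npc2. What part the shifts have in the members' values was not tested.

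For most other members the chromosome's median was close to 0. Dhcr7 was 0.52 above the median of the other genes on chromosome 7, Abcg1 0.68 above that of chromosome 17, Insig2 0.42 and Hsd17b7 0.34 above that of chromosome 1, and Hmgcs1 0.21 above that of chromosome 13. Cyp51 was 0.44 and Mvk 0.37 below the median of chromosome 5, and Npc1 was 0.35 below that of chromosome 18. The 20 tested genes nearest to Cyp51 had a median of -0.18, so its region was itself lower in LM2. The median of the members relative to their own chromosomes was -0.04.

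**Figure D3:**
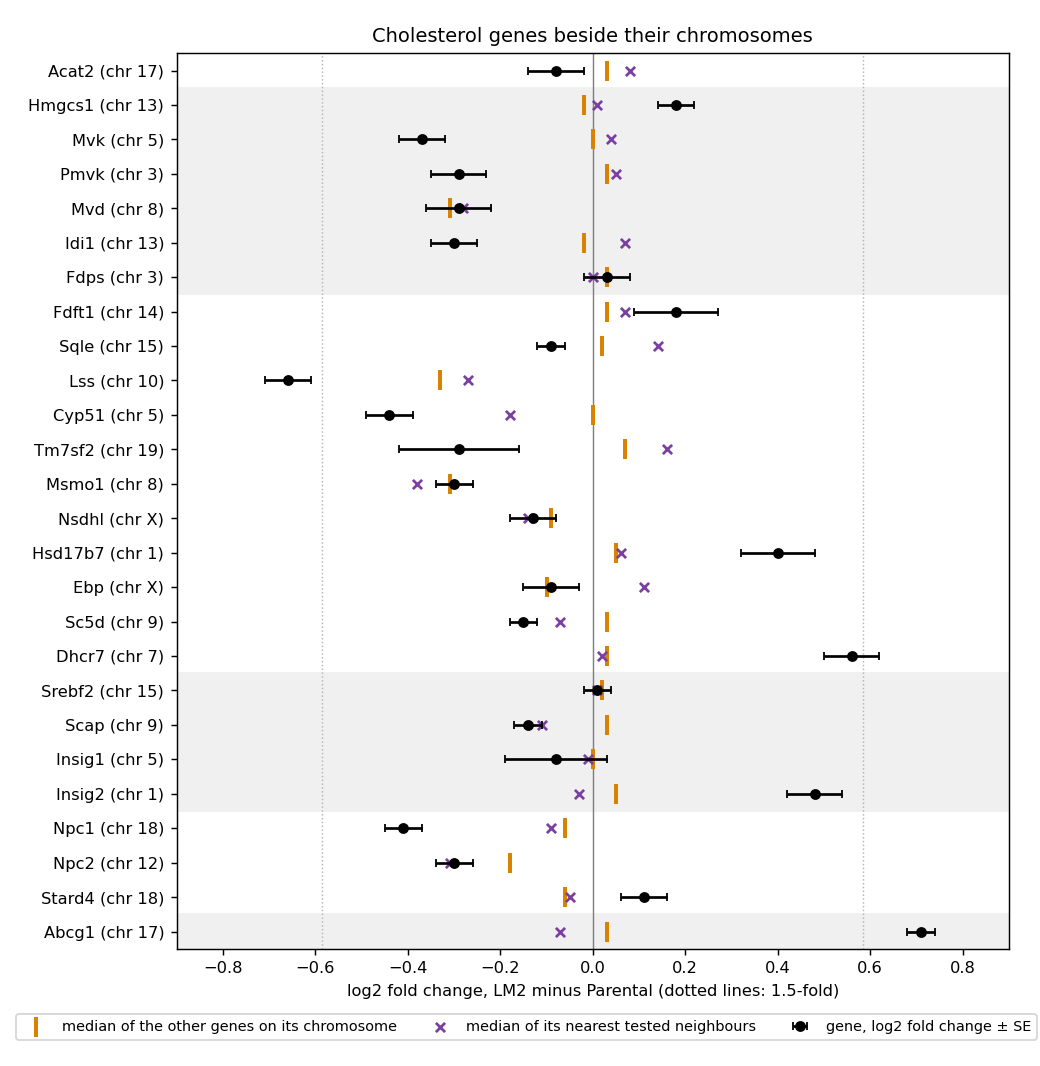
Black points are the log2 fold change of each gene (LM2 minus Parental, bars are SE), orange ticks the median of the other tested genes on the same chromosome and purple crosses the median of up to 10 tested neighbours on each side; dotted lines mark 1.5-fold, and Abca1, at 3.21, is off the scale. Mvd, Msmo1 and Npc2 lie on or near their own chromosome's or neighbours' value, while Lss, Cyp51, Mvk, Npc1, Dhcr7, Insig2 and Abcg1 lie away from both.

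The values of the authors' deposited table ran close to those given here. It holds 25 of the 27 tested members, all but Fdft1 and Abca1, and the 18 of them called here have the same sign in the authors' deposited table. That table belongs to the same series, and its direction was read from its closeness to the values here. The shared signs are therefore not independent of them. The largest gaps were in Tm7sf2, at -0.78 in the authors' deposited table against -0.29 here, and Idi1, given above.

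Genes around the 28 members were read from 8 lists of 67 genes, of which 61 were tested: 15 were higher, 31 were lower and 15 did not pass, with a median log2 fold change of -0.17. Of those tested 24.6% were higher and 50.8% lower, against 31.4% higher and 31.1% lower among all tested genes, and the counts of each short list below are read beside the same background. Faxdc2 was not matched, and Vldlr, Cd36, Gramd1c, Ch25h and Cyp7b1 were below the low-count filter. The list with the highest median, 0.72, was that of genes that store cholesterol as esters or release it. All 4 genes of that list passed, 3 of them higher. Soat1, the enzyme that esterifies cholesterol in most tissues, averaged 151 ± 0.945 CPM in LM2 and 74.8 ± 0.365 CPM in Parental cells (SD, n = 3 each), 2.02-fold higher in LM2 (log2 fold change 1.01 ± 0.03, edgeR adjusted p = 2.837e-18). Its relative Soat2 was 1.77-fold higher, at 7.84 CPM in LM2 and 4.41 CPM in Parental cells. Nceh1, which hydrolyses the esters, was 1.52-fold higher, and Lcat, a secreted enzyme that esterifies plasma cholesterol, was low and fell, at 0.604 CPM in LM2 and 1.29 CPM in Parental cells. Nceh1 and Lcat were named after their values were seen. None of the 3 that rose lies on chromosomes 4, 8 or 10.

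Uptake genes went both ways, with 2 of 7 tested higher and 3 lower. The lipoprotein receptor gene Lrp8 was 1.45-fold higher, at 81.2 CPM in LM2 and 56.1 CPM in Parental cells. It lies on chromosome 4, where the median was 0.39. The endocytic adaptor Dab2 was 1.27-fold lower and the lysosomal lipase Lipa 1.23-fold lower in LM2. Of 11 tested genes that transfer sterol between membranes 5 were higher and 3 lower, among them Osbpl9, 1.53-fold higher and also on chromosome 4, Gramd1a, 1.36-fold higher, and Gramd1b and Osbpl8, 1.17-fold and 1.16-fold lower. Osbpl8, at -0.21, lies on chromosome 10, where the median was -0.33, and its call was lost with limma on log2(TPM + 1) (-0.11, adjusted p = 0.193).

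The receptors that respond to oxysterols did not move together. Nr1h3, which encodes LXR alpha, averaged 14.4 ± 0.826 CPM in LM2 and 22.8 ± 1.13 CPM in Parental cells, 1.58-fold lower in LM2 (log2 fold change -0.66 ± 0.06, edgeR adjusted p = 2.525e-09). Nr1h2, encoding LXR beta, was 1.13-fold higher and their partner Rxra 1.29-fold higher. Lpcat3, an LXR target that remodels phospholipids, was 1.30-fold lower. In that list 2 of 10 tested genes were higher and 5 lower, and Apoe, an LXR target in macrophages chosen here after its values were seen, fell to 2.94 CPM in LM2, against 4.42 CPM in Parental cells.

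Genes beside the enzymes were mostly lower. Of 9 tested genes of the isoprenoid branches 7 were lower and 1 was higher. Pdss2, of ubiquinone side-chain synthesis, was 1.38-fold lower and Fnta, a subunit of protein prenyltransferases, 1.35-fold lower, on chromosomes 10 and 8. Their log2 fold changes of -0.46 and -0.43 stood beside chromosome medians of -0.33 and -0.31. Dhdds, which makes dolichol precursors, was 1.23-fold higher. Its log2 fold change of 0.30 lay below the median of 0.39 on its chromosome 4. Of 5 tested genes of other sterol enzymes and electron donors 3 were lower, including Erg28, named after a scaffold protein of yeast, and the reductase Por, and Cyb5r3, a reductase that feeds electrons to desaturases, was 1.32-fold higher. The Erg28 call was lost with an effective length offset and with limma on log2(TPM + 1).

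Of 11 genes of SREBP processing and sterol-regulated degradation 7 were lower, led by the ligase Rnf145, 1.35-fold, and the conjugating enzyme Ube2g2, 1.27-fold. Ube2g2, at -0.34, lies on chromosome 10 and sits at its median. Ufd1, which helps extract ubiquitylated proteins, was 1.14-fold higher. Of 4 genes that supply acetyl-CoA 2 were lower, among them the mitochondrial thiolase Acat1, 1.14-fold, and none was higher.

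**Figure D4:**
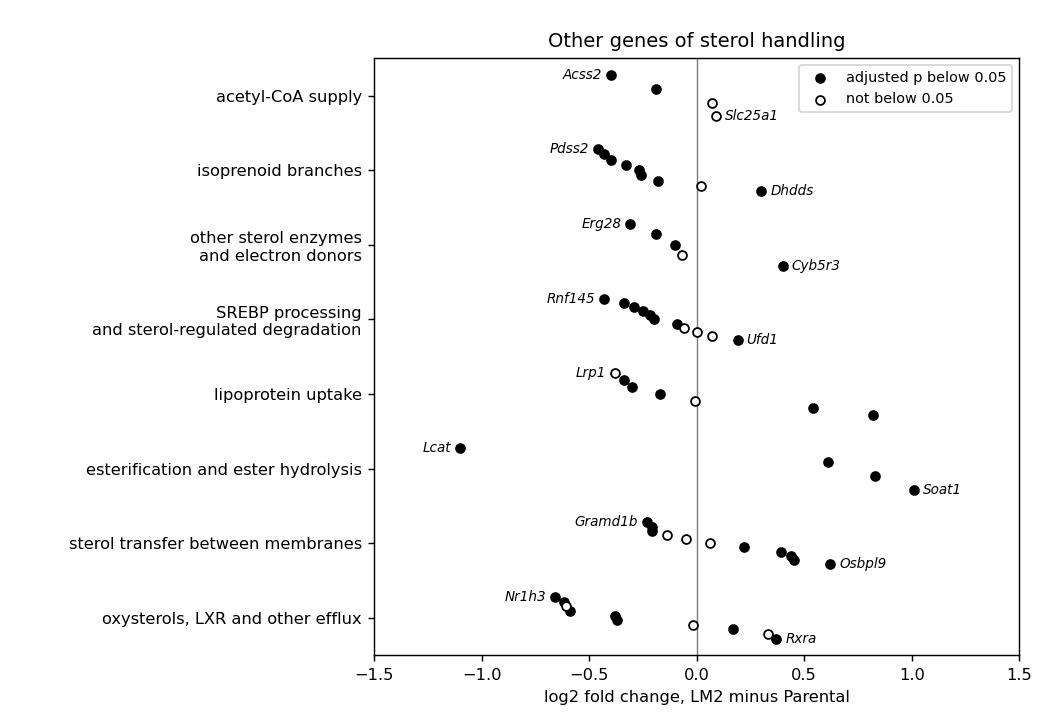
Each point is 1 tested gene of 8 lists, placed by its log2 fold change (LM2 minus Parental), filled where the adjusted p was below 0.05, with some of the outermost genes named. Esterification and ester hydrolysis has 3 of its 4 points above 0.6, while most points of the isoprenoid and SREBP lists lie between -0.5 and 0.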

How the data were processed

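Libraries of 3 LM2 and 3 Parental samples were made with an mRNA-seq kit, per the labels' protocols. The authors deposited estimated counts, TPM, lengths and effective lengths of 117486 transcripts per library, in the format of kallisto; the submitters' processing notes name kallisto 0.46.2, edgeR 3.32.1 and GRCm39 without their roles. The strand setting is not given in the sources used here. They also deposited log2 fold changes per gene symbol, whose log base and direction are not written and were read from their closeness to the values computed here (median absolute difference 0.0243).

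Transcripts were assigned to genes with GENCODE M21 (99.1% matched) and their estimated counts were added up for each gene, then rounded to whole numbers. Libraries held 33922699 to 45849019 counts. The lines were compared over all genes with edgeR 4.0.16 (filterByExpr, TMM, robust quasi-likelihood, no covariate, adjusted p below 0.05); a standard error is the log2 fold change over the square root of F. Scripts were tested on simulated data. Alternatives used DESeq2 1.42.0, limma 3.58.1, other filters and scalings, effective lengths, a replicate block and leaving out each library. Libraries of a line differed by more than counting noise (chi-square per degree of freedom 2.98 to 6.98).

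The members and lists were chosen with earlier results of these data known. All members were to be named, with up to 2 called genes per side of each other list whose mean reached 5 CPM in either line, those with the largest change; 1 of these is not reported here. Shared 31-base words were counted in the reference transcripts. The annotation is on GRCm38, so only chromosomes, gene order and RefSeq promoter windows of that build are given.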

Additional observations from a re-analysis of the deposited data

How the results depend on the processing

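Of 27 tested members, 15 kept their direction and their side of the threshold in all 14 alternatives, and no called member changed sign. Among members not called, Srebf2 turned to -0.01 with no filter on low counts and with limma on log2(TPM + 1) and to -0.04 with an effective length offset. When each library was left out in turn, Srebf2 ran between -0.03 (without LM2 replicate 3) and 0.03, Fdps between -0.05 (without LM2 replicate 3) and 0.07, and Insig1 between -0.22 (without LM2 replicate 3) and 0.01 (without LM2 replicate 2). The number of members over 1.5-fold and higher in LM2 was 1 when genes needed 1 CPM in 3 libraries, which leaves Abca1 untested. It was 3 with an effective length offset, where Insig2 reached 0.59, and 3 without LM2 replicate 1, where Dhcr7 reached 0.61. The median of the members was -0.11 with no filter on low counts, where Mylip entered, and -0.07 with limma on log2(TPM + 1), and between -0.15 and -0.08 when each library was left out in turn. No pairing by replicate number was visible in the values: deviations of same-numbered libraries correlated at -0.078, 0.0452 and 0.0147. These values cannot show whether same-numbered libraries were handled together. With the replicate number as a block, 8250 genes were called over all, and 7 members were higher and 13 lower. Depth limits Abca1 and Mylip, and intervals of their counts would cover counting error only.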

Other observations

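For 19 members a single transcript held more than 80% of the counts in every library, among them Cyp51, Nsdhl, Insig1, Npc1 and Abcg1. In 5 of the 27 tested members, Idi1, Tm7sf2, Msmo1, Sc5d and Srebf2, the share of the counts given to at least 1 transcript did not overlap between the lines. In Tm7sf2 a retained-intron transcript took 47.5%, 64.4% and 44.9% of the gene's estimated counts in LM2 libraries and 31.2%, 40.4% and 38.5% in Parental libraries, and the gene lay below 5 CPM in every library. In Sc5d the leading transcript took 56.2%, 55.6% and 59.3% in LM2 libraries and 53.5%, 52.7% and 53.8% in Parental libraries. The shares of Idi1, Msmo1 and Srebf2 were apart by less. These differences were not tested, and the comparison was chosen after the values were seen. The share of all tested genes with such a separated transcript was not computed. The count of 5 therefore cannot be read as more than is found elsewhere.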
